A study of Mus musculus with 10 samples.

Results

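The genes for the protein subunits of the mitochondrial ribosome were examined in B16OVA tumors, a mouse melanoma line that carries ovalbumin as a model antigen. The members were the genes whose symbol on the array platform begins with Mrpl or Mrps followed by a number, each represented by its probe set of highest mean over the 10 arrays. This gave 76 genes of the 19176 named genes tested, 48 with a large subunit symbol (Mrpl) and 28 with a small subunit symbol (Mrps), with 1 probe set each. The rule used symbols and no comparison between the groups. All 76 passed the low-expression filter, and 72 were brighter than the 75th percentile of the negative control probe sets on all 10 arrays. The other 4 were above that level on all 5 Vehicle arrays but on fewer BO-112 arrays (Mrpl16 and Mrps35 on 4, Mrps22 on 3 and Mrpl43 on 2).

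The tumors had been grown under the skin of B6 mice (C57BL/6 in the methods) and injected with BO-112, which is Poly I:C complexed with polyethylenimine (5 mice), or with an equal volume of the vehicle, a 5% glucose solution (5 mice). All mice carried the same transplanted line, and RNA of the whole tumor was hybridized to 1 Clariom S Mouse array per mouse. Values are log2 expression values after Robust Multichip Average (RMA), a method that corrects background, normalizes arrays and summarizes the probes of a set. Differences are BO-112 minus Vehicle on the log2 scale, ± the standard error of the limma fit, and were called at a Benjamini-Hochberg adjusted p under 0.05 over 21792 probe sets.

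Mitochondria keep their own ribosome to translate the few proteins encoded by mitochondrial DNA, all of them subunits of the machinery of oxidative phosphorylation. Its ribosomal RNAs come from mitochondrial DNA, whereas every protein is encoded in the nucleus, made in the cytosol and imported. The large subunit forms peptide bonds and the small subunit decodes the messenger RNA. Many of the proteins descend from bacterial ribosomal proteins (45 of the members here). Others are classed as mitochondrion-specific, with no place in bacterial ribosomes (31 members, Mrps36 among them). Mrps18a and Mrps18b are in that class although they are paralogues of Mrps18c, the counterpart of bacterial S18. The class is therefore not strictly one of descent. The symbol does not always give the place in the mammalian structure. Mrps18a and Mrps30 sit in the large subunit, and Mrps36 is now known as a part of the α-ketoglutarate dehydrogenase complex.

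Genes of this family are known targets of the nuclear factors NRF1 and the ETS-type factor GABP, so promoter sequences of the members are shown beside the values. Promoters are RefSeq windows on GRCm38.p6, from 250 bases before to 50 after the start of a transcript, with 73 windows for 67 matched members among 21263 windows in all. Both strands were searched for 3 motifs, and a window could hold more than 1 of them. The NRF1 motif (GCGC and TGCGC separated by 1 base of any kind) was in 13 member windows (17.8%) against 6.38% of all windows. The ETS motif (CCGGAAG) was in 25 (34.2%) against 11.6%. The YY1 motif (AAGATGG followed by CG) was in 8 (11%) against 1.83%. A match is a description of the letters and not evidence of binding. The first 3 sequences belong to the 3 members called lower in BO-112 tumors, given as the 110 bases before the start (Mrpl12 at chr11:120484527-120484636, plus strand; Mrps25 at chr6:92184024-92184133, minus strand; Mrpl58 at chr11:115403642-115403751, plus strand). Capitals mark an NRF1 motif in Mrpl12, whose first base is 81 before the start, and an ETS motif in Mrpl58, 17 before the start. A further ETS motif of Mrpl58 crosses the start and is not capitalized, and the Mrps25 window held none of the 3 motifs. The fourth sequence is the 41 bases between the starts of Mrpl46 and Mrps11, which are transcribed away from each other (chr7:78783090-78783130, plus strand).
Mrpl12: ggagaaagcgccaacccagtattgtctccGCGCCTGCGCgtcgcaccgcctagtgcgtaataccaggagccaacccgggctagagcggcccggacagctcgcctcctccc
Mrps25: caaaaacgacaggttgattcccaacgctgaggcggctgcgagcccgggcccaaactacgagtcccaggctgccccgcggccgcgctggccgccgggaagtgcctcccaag
Mrpl58: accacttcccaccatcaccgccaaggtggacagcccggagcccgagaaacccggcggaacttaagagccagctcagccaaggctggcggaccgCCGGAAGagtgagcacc
Mrpl46 and Mrps11: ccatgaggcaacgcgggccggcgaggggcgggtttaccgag

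BO-112 mice 2 and 5 stood apart. Their arrays had the narrowest interquartile ranges (2.80 and 2.85, against 3.13 to 3.42 on the other 8) and the lowest array contrast, how often positive controls outshine negative controls over all their pairs, as a fraction (0.845 and 0.855, against 0.867 to 0.891). The contrast was 0.864 ± 0.0144 in BO-112 and 0.882 ± 0.00933 in Vehicle tumors (SD, n = 5 each, 2-sided exact permutation test, p = 0.0794). Of 13 interferon-stimulated genes, 12 were higher in BO-112 tumors, with Mx1 at 3.43 ± 0.491 and adjusted p = 0.00592 in limma, and 12 were higher without mice 2 and 5 as well. All 14 melanocyte markers were above the negative controls on every array.

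Most members had lower estimates in BO-112 tumors, but few passed the threshold on the adjusted p. The genes Mrpl12, Mrps25 and Mrpl58 were called lower and 0 members were called higher. These 3 are 3.95% of the members, against 2.95% of all named genes called lower and 2.36% called higher, so the share of calls lay near that of all genes. Under the B-statistic over 0, 2 members passed (Mrpl12 and Mrps25), against a background of 2.23% in both directions. All 5 BO-112 tumors lay below all 5 Vehicle tumors in 6 members (Mrpl12, Mrps25, Mrpl16, Mrps33, Mrpl18 and Mrpl48), against 5.53% of all named genes, and no member showed the opposite separation.

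The estimates ranged from -0.77 (Mrpl12) to 0.15 (Mrpl35), with a median of -0.22 against 0.01 over all named genes. They were negative in 69 of 76 members, against 48.3% of named genes. Part of the named genes were dim, and among named genes with a mean above 6 the estimate was negative in 62.1% and the median was -0.11. At an unadjusted p under 0.05, 29 members were lower and 0 higher, beside 2843 of the 19176 named genes lower (14.8%) and 1975 higher. Of the 9 members with estimates beyond -0.5, 2 were called, and standard errors over the members ran from 0.0814 to 0.281. The 95% interval lay within 1 log2 unit of 0 in 71 members, and 20 members had estimates within 0.1 of 0. In bulk tumors, fewer cells of a type and less RNA per cell cannot be told apart.

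**Figure D1:**
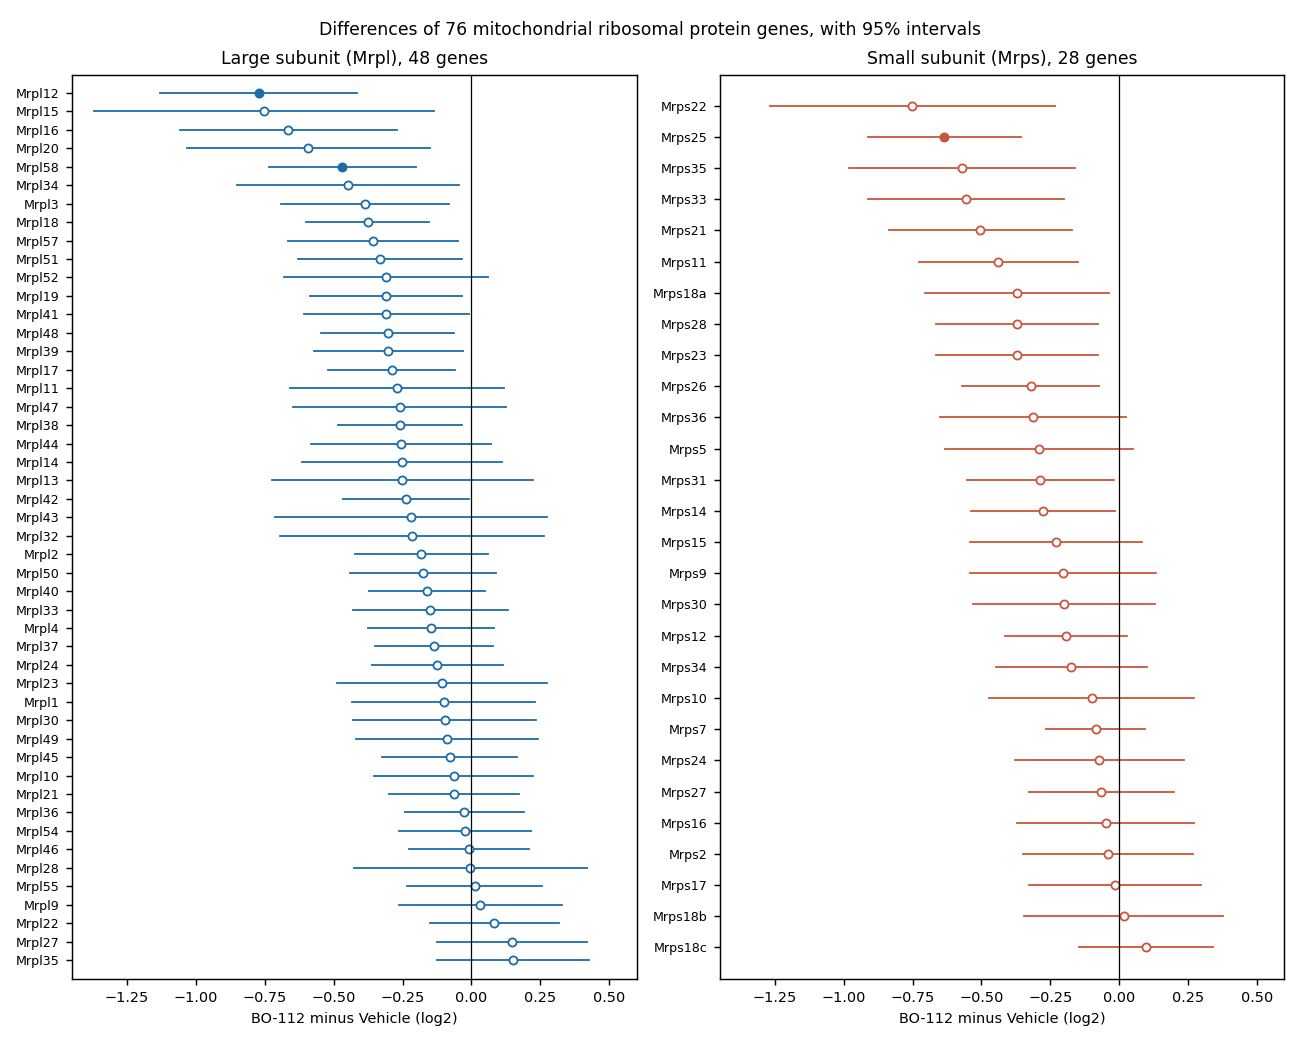
Difference of each of the 76 genes between BO-112 and Vehicle tumors (n = 5 each), as BO-112 minus Vehicle on the log2 scale, with 95% intervals from limma and genes ordered within each subunit. Filled points are the 3 genes at adjusted p under 0.05 (Mrpl12, Mrpl58 and Mrps25), and 69 of the 76 points lie left of 0.

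Mrpl12 forms part of the flexible stalk of the large subunit and is also known to bind the mitochondrial RNA polymerase. Its log2 values were 8.92, 8.56, 9.002, 9.15 and 8.22 in BO-112 mice 1 to 5 and 9.39, 9.56, 9.54, 9.60 and 9.62 in Vehicle mice 1 to 5. Every BO-112 tumor was below every Vehicle tumor, with mouse 5 the lowest and the Vehicle tumors close together. The difference was -0.77 ± 0.163 (1.71-fold lower, adjusted p = 0.0254 in limma). Without BO-112 mice 2 and 5 it was -0.52 ± 0.0979 (adjusted p = 0.0204), and Mrpl12 was then the one member still called.

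Mrps25 is a small subunit protein without a bacterial counterpart. Its log2 values were 8.34, 7.99, 8.28, 8.18 and 8.06 in BO-112 mice 1 to 5 and 8.61, 9.16, 8.91, 8.71 and 8.64 in Vehicle mice. The groups did not overlap, and here mice 2 and 5 lay only slightly below the other BO-112 tumors. The difference was -0.63 ± 0.127 (1.55-fold lower, adjusted p = 0.0196 in limma). Its adjusted p was under the threshold in 9 of 10 fits that left out 1 mouse, against 5 of 10 for Mrpl12. Without BO-112 mice 2 and 5 together it was -0.54 ± 0.135, with adjusted p = 0.0574.

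Mrpl58 is a large subunit protein of the release factor family that can free stalled mitochondrial ribosomes by cutting the peptide from its transfer RNA. Its log2 values were 9.16, 9.21, 9.18, 9.65 and 9.02 in BO-112 mice 1 to 5 and 9.56, 9.79, 9.82, 9.69 and 9.71 in Vehicle mice. BO-112 mouse 4 lay among the Vehicle tumors, and the other BO-112 tumors lay below them. The difference was -0.47 ± 0.122 (1.38-fold lower) with adjusted p = 0.0494 in limma, just inside the threshold. It was called in 1 of the 10 fits that left out 1 mouse, and was -0.38 ± 0.128 (adjusted p = 0.136) without mice 2 and 5.

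Just outside the threshold were Mrpl18 and Mrpl16, the counterparts of bacterial L18 and L16, and Mrps33, a mitochondrion-specific small subunit protein. Mrpl18 read 8.28, 8.12, 8.46, 8.37 and 8.31 in BO-112 mice 1 to 5 and 8.83, 8.79, 8.70, 8.54 and 8.56 in Vehicle mice, a log2 difference of -0.38 ± 0.102 with adjusted p = 0.0552 in limma. The 5 BO-112 values were as close together as the Vehicle values, and mice 2 and 5 did not both stand apart. Mrpl16 read 6.70, 5.99, 6.98, 6.97 and 6.41 against 7.09, 7.25, 7.42, 7.26 and 7.36, a log2 difference of -0.66 ± 0.18 with adjusted p = 0.0552. Mrps33 read 9.31, 8.65, 9.22, 9.40 and 8.72 against 9.47, 9.63, 9.55, 9.54 and 9.90, a log2 difference of -0.56 ± 0.163 with adjusted p = 0.0689. In both of these genes the groups were separate and BO-112 mice 2 and 5 were the lowest 2 tumors.

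The 3 largest positive estimates belonged to Mrpl35, Mrpl27 and Mrps18c, the counterparts of bacterial L35, L27 and S18. None of the 3 passed the test. Mrpl35 read 9.84, 9.68, 9.85, 9.74 and 9.31 in BO-112 mice 1 to 5 and 9.61, 9.58, 9.69, 9.29 and 9.50 in Vehicle mice (log2 difference 0.15 ± 0.126, adjusted p = 0.479 in limma). Mouse 5 was the lowest BO-112 tumor and Vehicle mouse 4 the lowest tumor of all. Mrpl27 read 8.93, 9.08, 9.04, 9.14 and 8.93 against 8.95, 8.99, 9.17, 8.53 and 8.73 (log2 difference 0.15 ± 0.124, adjusted p = 0.491). Mrps18c read 7.21, 7.05, 7.15, 7.29 and 7.03 against 7.03, 7.15, 7.29, 6.79 and 6.97 (log2 difference 0.10 ± 0.111, adjusted p = 0.617). The groups overlapped in all 3 genes.

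**Figure D2:**
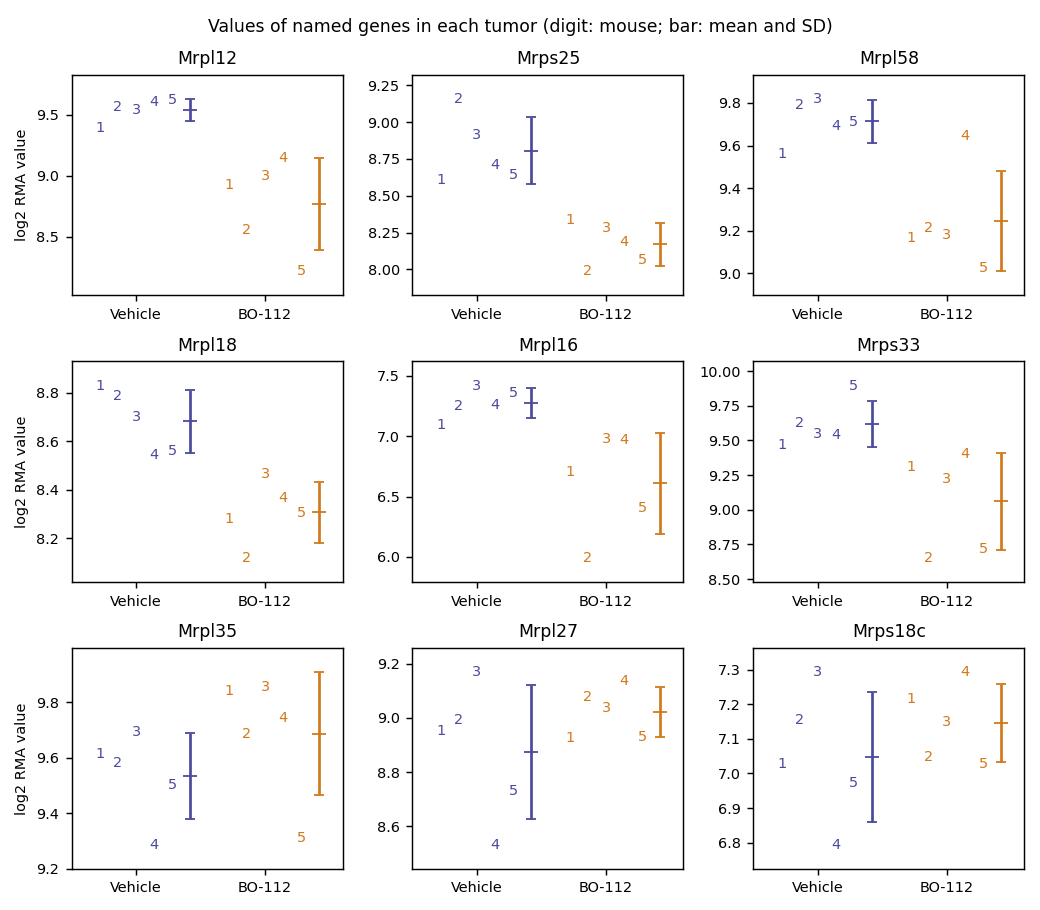
Log2 RMA value of 9 member genes in each tumor, with a digit for the mouse at its value and a bar for the mean and SD of the group (n = 5), each panel on its own axis. Mrpl12, Mrps25, Mrpl18, Mrpl16 and Mrps33 show no overlap between Vehicle (blue) and BO-112 (orange), whereas Mrpl58 overlaps through BO-112 mouse 4 and the 3 genes of the bottom row overlap throughout.

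Both subunits had similar counts and medians. Of the 48 large subunit genes, 2 were lower (Mrpl12 and Mrpl58), the estimate was negative in 43 and the median log2 difference was -0.22. Of the 28 small subunit genes, 1 was lower (Mrps25), 26 were negative and the median was -0.25. With genes placed as in the mammalian structure, 2 of 50 large and 1 of 25 small subunit genes were lower, with medians of -0.22 and -0.23. By class of origin, 1 of 45 genes with a bacterial counterpart and 2 of 31 mitochondrion-specific genes were lower. Medians were -0.18 and -0.29, with negative estimates in 39 and 30. With subunits taken by symbol, the 13 mitochondrion-specific small subunit genes had the most negative median of the 4 combinations (-0.32). Mrps18a, Mrps30 and Mrps36 were among these 13. The 30 large subunit genes with bacterial counterparts had the least negative median (-0.17). The subunits and classes were not tested against each other, since genes are not replicates of a condition.

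Members with distinct known roles had estimates on both sides of 0. In the stalk and its base, Mrpl10 and Mrpl11 had log2 differences of -0.06 ± 0.132 and -0.27 ± 0.177 (adjusted p = 0.79 and 0.368 in limma) beside the lower Mrpl12. Mrpl44, an RNase III-like protein in which mutations cause cardiomyopathy in humans, had -0.25 ± 0.149 (adjusted p = 0.312). Mrpl45, which sits at the exit of the peptide tunnel and faces the inner membrane, had -0.08 ± 0.111 (adjusted p = 0.694). Mrps12, the counterpart of bacterial S12 at the decoding center, had -0.19 ± 0.101 (adjusted p = 0.257). The 3 paralogues Mrps18a, Mrps18b and Mrps18c, of which the first is in the large subunit, had -0.37 ± 0.153, 0.02 ± 0.165 and 0.10 ± 0.111 (adjusted p = 0.161, 0.959 and 0.617). Mrps30 had -0.20 ± 0.151 (adjusted p = 0.435) and Mrps36 -0.31 ± 0.154 (adjusted p = 0.235). None of these passed the test, which does not show that they stayed level.

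The neighbors Mrpl46 and Mrps11, singled out for their shared start region after their values had been seen, had unlike estimates. Mrps11, the counterpart of bacterial S11, read 9.40, 9.12, 9.36, 9.72 and 9.04 in BO-112 mice 1 to 5 and 9.81, 9.57, 9.82, 9.80 and 9.84 in Vehicle mice, a log2 difference of -0.44 ± 0.132 with adjusted p = 0.0743 in limma. Mrpl46 read 7.33, 7.31, 7.26, 7.58 and 7.26 against 7.42, 7.51, 7.34, 7.26 and 7.26, a log2 difference of -0.01 ± 0.0997 with adjusted p = 0.964. Within each tumor, Mrps11 minus Mrpl46 ran from 1.79 to 2.14 in BO-112 and from 2.07 to 2.58 in Vehicle tumors on the log2 scale, a description with no test, since the pair was picked on these values. The 41 bases between their starts held none of the 3 motifs. Members with an NRF1 motif (13) had a median log2 difference of -0.26 and the 54 matched members without one -0.19. With an ETS motif (25) the median was -0.31, and without one -0.18. With a YY1 motif (8) it was -0.10, and without one -0.22. Motif classes were not tested against each other.

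The deviation of the family was largest in 2 tumors. Averaged over the 76 members, the deviation from the Vehicle mean was -0.14, -0.40, -0.15, -0.01 and -0.47 on the log2 scale in BO-112 mice 1 to 5, and between -0.07 and 0.04 in the Vehicle mice. BO-112 mouse 4 lay within the Vehicle range, mice 1 and 3 lay below it, and mice 2 and 5 lay farthest down. The lowest BO-112 value was in mouse 2 or mouse 5 for 69 of the 76 members. The same count was not made over all named genes, and these were the arrays with the narrowest interquartile ranges. Whether this order is particular to the family was not tested. The median difference from Vehicle was -0.44 for mice 2 and 5 (70 members negative) and -0.09 for mice 1, 3 and 4 (53 negative). Both subunits followed this order, from -0.46 to 0.01 over BO-112 tumors for large subunit genes and from -0.48 to -0.03 for small subunit genes.

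**Figure D3:**
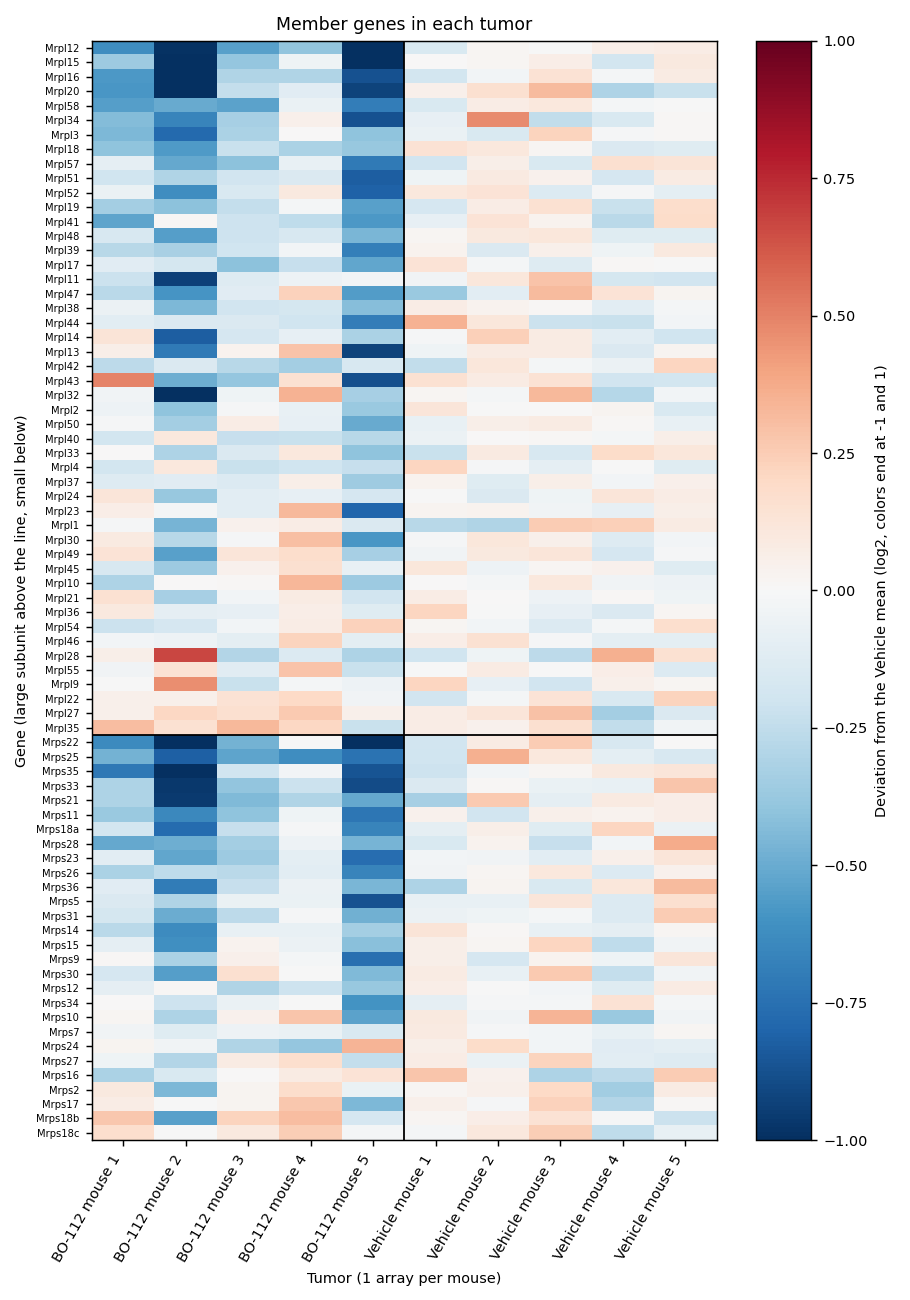
Deviation of each member gene (rows) from its Vehicle mean in each of the 10 tumors (columns), on a log2 color scale that ends at -1 and 1, with large subunit genes above the horizontal line. The columns of BO-112 mice 2 and 5 hold most of the blue, and in the rows of Mrpl12, Mrpl16 and Mrps25 all BO-112 tumors are blue.

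The spread was wider within BO-112 than within Vehicle tumors, in the members as in genes at large. The SD was larger in BO-112 than in Vehicle tumors in 65 of 76 members (85.5%), against 76.4% of all named genes, with median SDs of 0.249 and 0.133 against 0.267 and 0.168 over all named genes. The widest spread was that of Mrpl15, the counterpart of bacterial L15, which read 8.20, 7.39, 8.18, 8.53 and 6.77 in BO-112 mice 1 to 5 and 8.58, 8.59, 8.63, 8.38 and 8.67 in Vehicle mice. Its log2 difference was -0.75 ± 0.281, close in size to that of Mrpl12, with adjusted p = 0.128 in limma. The widest spread among Vehicle tumors was that of Mrpl34, the counterpart of bacterial L34, with values from 7.15 to 7.87 (SD 0.282), and it had a log2 difference of -0.45 ± 0.184 with adjusted p = 0.159. Mrps22, a mitochondrion-specific protein, had an estimate nearly as large, -0.75 ± 0.236 (adjusted p = 0.0837). Its level in BO-112 mice 2 and 5 (5.58 and 5.62) was not above the negative controls, so the size of its difference is uncertain.

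Other genes of mitochondrial translation were compared by list. Of 4 mitoribosomal proteins tested that carry other names, 1 was lower, Gadd45gip1, a large subunit protein at the tunnel exit (log2 difference -0.62 ± 0.162, adjusted p = 0.0486 in limma). Of 15 mitochondrial translation factors, 0 were called and 14 had negative estimates, with a median of -0.41. The lowest p in that list was that of Lrpprc, which stabilizes mitochondrial messenger RNAs (-1.08 ± 0.292, adjusted p = 0.0551). Of 23 genes of mitoribosome assembly and rRNA modification, 1 was lower, the GTPase gene Noa1 (-1.13 ± 0.279, adjusted p = 0.0425). Noa1 overlapped between the groups and was above the negative controls on 3 of 5 BO-112 arrays, and the median of the list was -0.11. Of 13 genes of mitochondrial DNA transcription and replication, 0 were called, with the lowest p for the helicase gene Twnk (-0.42 ± 0.165, adjusted p = 0.142), which was above the negative controls on 0 arrays. Of 8 nuclear regulators, 0 were called, with the lowest p for Gabpa, the DNA-binding subunit of GABP (-0.34 ± 0.116, adjusted p = 0.105), and a median of -0.38. Without BO-112 mice 2 and 5, Gadd45gip1 (-0.42 ± 0.136, adjusted p = 0.125) and Noa1 (-0.68 ± 0.179, adjusted p = 0.0671) missed the threshold, while Lrpprc passed it (-0.54 ± 0.1, adjusted p = 0.0195). The medians were then -0.24 for proteins with other names and -0.16 for translation factors. For assembly and rRNA modification the median turned to 0.03, for mitochondrial DNA transcription and replication it turned from -0.17 to 0.05, and for nuclear regulators it was -0.09.

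The 2 lists most like the members are the cytosolic ribosomal proteins and complex I of the respiratory chain, which holds products of mitochondrial translation. Of 64 cytosolic ribosomal protein genes, 2 were lower (3.12%), Rps4x (-0.60 ± 0.153, adjusted p = 0.0479 in limma) and Rplp0 (-0.40 ± 0.102, adjusted p = 0.0466). The median log2 difference of the 64 was -0.17, 54 were negative and the median SD in BO-112 tumors was 0.172. The list was taken by symbol and held related genes such as Rpl3l, Rpl39l and Rps23rg1. On all arrays, 61 of the 64 were above the negative controls. Rpl3l and Rpl39l were above them on 0 arrays. Rps23rg1, with the largest positive estimate, was above them on 3 BO-112 arrays and 1 Vehicle array. The complex I list held every tested symbol beginning with Nduf, assembly factor genes among them, so not all encode subunits of the complex. Of these 46 genes, 12 were lower (26.1%), with a median of -0.34 and 42 negative. The largest were Ndufs8, a core subunit with iron-sulfur clusters (-1.21 ± 0.198, adjusted p = 0.0095), the assembly factor gene Ndufaf5 (-0.98 ± 0.225, adjusted p = 0.0344) and Ndufb10 (-0.86 ± 0.14, adjusted p = 0.00931). Without BO-112 mice 2 and 5, 5 of the 12 complex I genes (Ndufs8, Ndufb10, Ndufb11, Ndufc2 and Ndufaf5), 0 cytosolic ribosomal protein genes and 1 member were lower, with medians of -0.22, -0.13 and -0.09. The lists were not tested against each other.

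The tumors lowest in the members were also lowest in cell cycle genes and melanocyte markers. Of 13 cell cycle genes, 5 were lower, among them Ccna2 (-1.03 ± 0.225, adjusted p = 0.0285 in limma), with Rrm1 at -0.98 ± 0.244 and Mcm6 at -0.87 ± 0.172 (adjusted p = 0.0436 and 0.0193). Their mean deviation on the log2 scale was -0.75, -1.06, -0.46, -0.27 and -1.68 in BO-112 mice 1 to 5. Of 14 melanocyte markers, 1 was lower, Oca2 (-1.18 ± 0.295, adjusted p = 0.0444), and 12 had negative estimates. The log2 of their summed level was 14.9 to 16.0 in BO-112 and 15.9 to 16.1 in Vehicle tumors, and their mean deviation was -0.25, -0.44, -0.14, 0.08 and -1.28 in BO-112 mice 1 to 5. Without BO-112 mice 2 and 5, 3 cell cycle genes were lower (Ccna2, Rrm1 and Mcm6), with the median of that list at -0.48 against -0.77, and 0 melanocyte markers were, with Oca2 at -0.72 ± 0.182 (adjusted p = 0.06).

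Markers of other cells varied too. Of 14 leukocyte markers, 1 was higher, Cd8a of cytotoxic T cells (2.43 ± 0.489, adjusted p = 0.0202 in limma), and 12 had positive estimates. The log2 of their summed level was 10.8 to 13.4 in BO-112 and 9.77 to 11.6 in Vehicle tumors, highest in BO-112 mouse 5, and 3 of the 14 were above the negative controls on all arrays and 1 on none. Of 12 skeletal muscle, 11 keratinocyte and 11 fibroblast and endothelial markers, 0 were called, and the lowest adjusted p in these lists were 0.437 (Actn3), 0.585 (Trp63) and 0.259 (Pecam1). The log2 of the summed level ran from 10 to 14.8 in BO-112 and from 10.1 to 13.1 in Vehicle tumors for muscle, with the highest in BO-112 mouse 5, and from 9.15 to 13.6 and from 9.14 to 12.1 for keratinocytes, with the highest in BO-112 mouse 2, and 4 and 0 of these markers were above the negative controls on all arrays. For fibroblast and endothelial markers it ran from 11.3 to 13.7 and from 10.5 to 13.1. With both the muscle and keratinocyte scores as covariates, 3 members (Mrpl12, Mrps25 and Mrpl16) and 4.67% of named genes were lower. With the melanocyte score 1 member (Mrpl12) and 0.996% of named genes were, and the median over members was -0.10. With the cell cycle score 0 members and 2 of all named genes (0.0104%) were, the median over members was 0.00 and 37 of 76 estimates were negative. That score ran from -1.68 to -0.27 in BO-112 and from -0.10 to 0.21 in Vehicle tumors. The groups did not overlap in it, so this fit cannot separate the score from the treatment. The part of these cells and of cycling in the difference of the members was not tested.

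**Figure D4:**
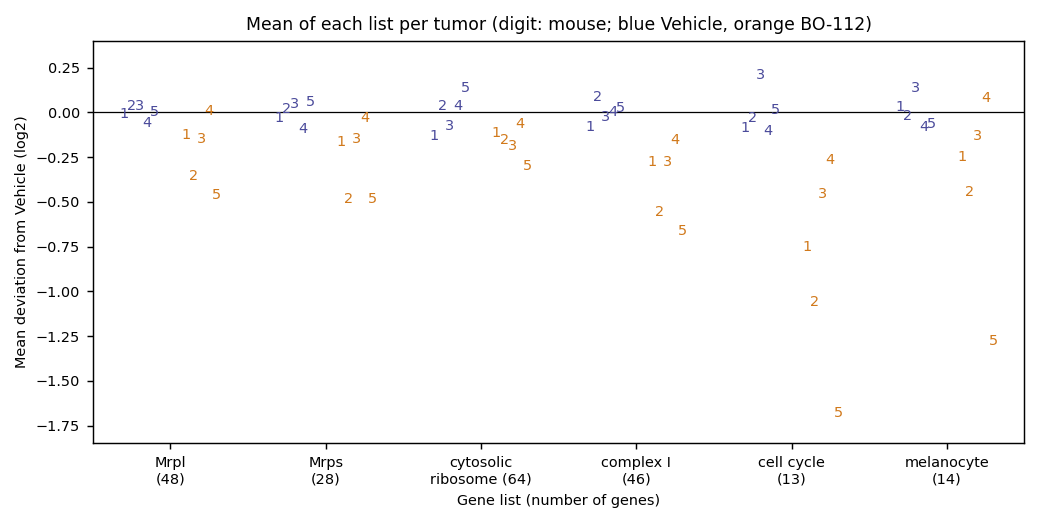
Mean deviation from the Vehicle mean over the genes of each list in each tumor, on the log2 scale, with a digit for the mouse (Vehicle blue, BO-112 orange) and the number of genes under each list. BO-112 mice 2 and 5 are lowest in both subunits, in complex I, in cell cycle genes and in melanocyte markers, with the widest range in cell cycle genes (-1.68 to -0.27).

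The count of called members moved with single tumors. Without BO-112 mouse 4, the one nearest Vehicle, 15 members were lower (19.7%), 8 of the large and 7 of the small subunit, while the share of all named genes called lower rose to 9.23%. The median of the members was then -0.27. Without BO-112 mouse 2 the count was 1 (Mrps25), with 1.13% of named genes lower. Without Vehicle mouse 3 it was 0, and without Vehicle mouse 2, 4 or 5 it was 1 each (Mrps25), with 0.668% to 0.783% of named genes lower in these 4 fits. Without BO-112 mice 2 and 5 it was 1 (1.32%) against 1.62% of named genes. With the array contrast as a covariate, 0 members and 6 named genes were lower, and the median of the members was -0.07, with 51 negative. In that fit 0 of the 13 interferon-stimulated genes were called either, although their median log2 difference was 2.14, against 2.62 without the covariate. The part of array quality in the difference of the members was not tested.

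**Figure D5:**
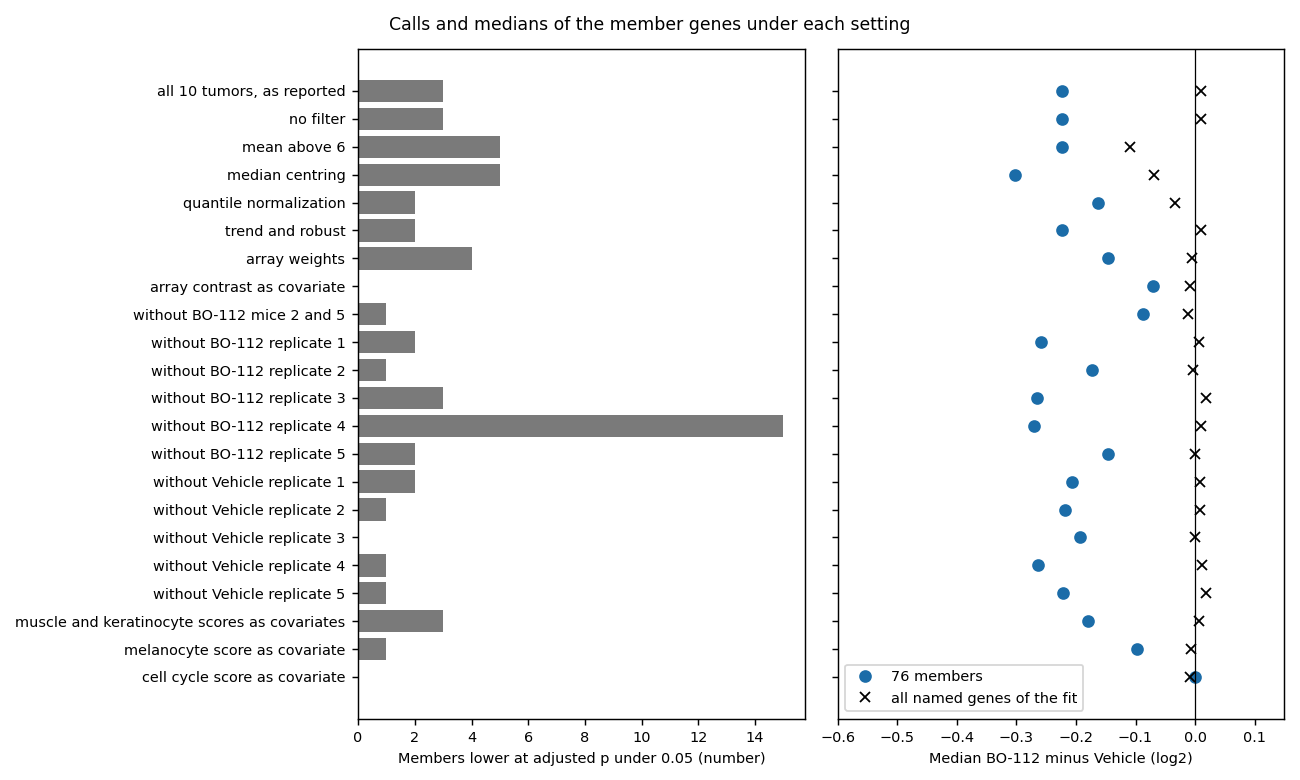
Number of members lower in BO-112 tumors at adjusted p under 0.05 (left, bars from 0) and median log2 difference of the members and of all named genes (right), under the settings of the limma fit shown. The count runs from 0 to 15, and the median of the members is below that of the named genes in each setting shown but the one with the cell cycle score as covariate.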

How the data were processed

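Total RNA of 10 whole B16OVA tumors (5 BO-112, 5 Vehicle, 1 mouse each, as the sample titles name them) was measured on Clariom S Mouse arrays. The deposited values are log2 expression values that the authors made with RMA, whose version and the genome build behind the probe sets are not given in the sources used here. RMA takes out much of any shift common to most transcripts and compresses dim values. The sources do not say whether the mice were handled in separate batches. The p-values measure the spread between these tumors within the groups, and would miss a batch that differed between the groups.

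Control probe sets (6923 of 29129) were set aside. As in the study, probe sets had to exceed 4 on 3 or more arrays of BO-112 or of Vehicle tumors, which left 21792 probe sets, 19239 with 1 gene symbol, 2553 with none and 0 with several, for 19176 named genes. The study reports a slightly lower count of probe sets under this criterion. Symbols came from the platform annotation, and all 76 member symbols were also in the RefSeq table of GRCm38.p6. A model without covariates was fitted to each probe set (R 4.3.3, limma 3.58.1, lmFit then eBayes, with a prior proportion of 0.01). Its 2-sided p-values were adjusted by Benjamini-Hochberg over all tested probe sets, and the B-statistic was used as in the study's methods. Values over a list are counts and medians with no test. The calculations were tested on simulated data. The number of arrays limits the precision.

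Named genes were, by rule, called members, the 3 largest positive estimates, the 3 lowest p outside the threshold, members with distinct roles, the widest spreads, members with an outlying tumor, and up to 3 genes of each compared list. Mrps22, Mrpl46 and Mrps11 were also described after their values had been seen. The members, lists and roles were chosen with earlier results of these data known. Alternatives were the filter, the scaling, the variance model, array weights, the array contrast as covariate, the mouse number as a block and leaving out mice. Covariates from the marker and cell cycle lists were added after seeing the data.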

Additional observations from a re-analysis of the deposited data

Results flagged for a closer look

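Within a group of 5 tumors, a value was singled out where its gap to the nearest other tumor exceeded 0.71 of the group's range (Dixon's critical value). Of 152 groups of member values, 8 were, 7 of them in BO-112 and 1 in Vehicle tumors, and chance singles out about 1 in 20 groups. Log2 values are given.

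BO-112 mouse 5 was far below the other BO-112 tumors in Mrpl51, a large subunit protein (9.19, next 9.72), in Mrps5, the counterpart of bacterial S5 (7.66, next 8.24), and in Mrpl44 (7.91, next 8.40). BO-112 mouse 2 was far below in Mrpl11 (6.84, next 7.55). It was far above in Mrpl40 (8.89, next 8.60) and in Mrpl4 (8.55, next 8.26), against the direction of most members in that tumor. BO-112 mouse 4 was far above in Mrpl46 (7.58, next 7.33). Vehicle mouse 2 was far below in Mrps11 (9.57, next 9.80).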

How the results depend on the processing

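The count of members called lower was 3 with all 10 tumors, 5 with a mean above 6 and 5 with median centring, 1 without BO-112 mice 2 and 5 and 1 with the melanocyte score as covariate, and 0 with the array contrast or the cell cycle score as covariate. Named genes lower were 2.95% with all 10 tumors, 6.73% with a mean above 6, 4.08% with median centring, 1.62% without BO-112 mice 2 and 5, 0.996% with the melanocyte score, 0.0313% with the contrast and 0.0104% with the cell cycle score, so these counts moved along with those of all named genes. Large subunit counts were 4 with a mean above 6 or median centring, 1 with quantile normalization, with trend and robust variance, with B over 0, without BO-112 mice 2 and 5 and with the melanocyte score, and 0 with the contrast or the cell cycle score. Small subunit counts were 0 without BO-112 mice 2 and 5 and with the contrast, the melanocyte or the cell cycle score as covariate. Leaving out 1 tumor at a time gave 0 to 15 members, 0 to 8 large and 0 to 7 small subunit genes. The median of the members moved from -0.22 to -0.0699 with the contrast and to 0.000692 with the cell cycle score, which did not overlap between the groups. The causes were not tested. Median centring and quantile normalization moved the median of all probe sets by -0.08 and -0.04, and the median of the members was -0.30 and -0.16, with 72 and 58 negative.

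Mouse numbers did not pair the samples (correlations of same-numbered deviations from -0.31 to 0.387, and 1 of 5 mice correlated best with its own number). With the mouse number as a replicate block, 0 members, 0 large and 0 small subunit genes, and 27 named genes were lower, against 565 without it. Counting all probe sets of a gene could give no other value, since each member has 1. No member was called higher under any setting tried. Dim members near the negative controls (Mrps22, Mrpl43, Mrpl16 and Mrps35) limit what their differences show.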
